A study of Mus musculus with 2 samples.

Results

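Arginine is the amino acid on which the classic suppressive enzymes of myeloid-derived suppressor cells (MDSCs) compete, and the ornithine that arginase makes from it is the starting material of the polyamines. The 10 genes described here cover that route. They are the arginases Arg1 and Arg2, the inducible nitric oxide synthase Nos2, the arginine importer Slc7a2, the synthesis enzymes Odc1, Srm and Sms, the catabolic enzyme Sat1, and the regulators Oaz1 and Azin1. They were taken by name, as every probe set that the array annotation gives to a listed symbol, which made 21 probe sets of 45037 in all. A gene was read from its brightest probe set (highest mean of both arrays) annotated to 1 symbol only, and counted as above the floor when the higher of its 2 intensities reached 78.44, the median of all probe sets on both arrays. In this way 9 of the 10 genes were read, out of 18193, and 8 lay above the floor, out of 11920. Nos2 lay below it. Sms had only probe sets that the annotation shares with its pseudogene Sms-ps, so it is described by probe set and enters no count.

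The data were 1 array of each kind. Fresh bone marrow cells of C57BL/6 mice received either control siRNA or silncMDSC, the siRNA against the long non-coding RNA lncMDSC (lnc-C/EBPβ in the study), and both cultures were then grown with IL-6 and GM-CSF for 4 days, a treatment that drives marrow cells towards MDSCs. Neither the age of the mice nor the sequence of this siRNA is given in the sources used here, and the annotation used here names no probe set for the targeted RNA, whose knockdown was therefore not analysed here. With 1 culture per siRNA there is no replicate error, no test and no p, and every difference below describes these 2 arrays. In bulk RNA of a mixed culture, fewer cells of a type and less RNA per cell cannot be told apart. The question was which parts of arginine and polyamine handling differed between the culture with lncMDSC targeted and the control culture.

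In these pathways, arginine enters the cell through cationic amino acid transporters and is split by arginase into ornithine and urea, or oxidised by Nos2 into citrulline and nitric oxide. Ornithine decarboxylase, the product of Odc1, turns ornithine into putrescine. Spermidine synthase (Srm) and spermine synthase (Sms) then add aminopropyl groups to make spermidine and spermine. Sat1 acetylates these products for export or oxidation. The antizyme Oaz1 binds ornithine decarboxylase and sends it to the proteasome, and the antizyme inhibitor Azin1, a relative of the enzyme without its activity, takes the antizyme away. Odc1 and Srm are known as targets of the transcription factor MYC, and Arg1 as a product of macrophages activated by IL-4 and of MDSCs.

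The farthest apart of these genes were Srm, lower on the silncMDSC array by 1.08 on the log2 scale, and Slc7a2, higher by 0.94. Of the 8 genes above the floor, 1 (Slc7a2) was at least 1.5-fold higher and 1 (Srm) at least 1.5-fold lower, against 0.948% and 1.42% of all 11920 genes. Srm was also at least 2-fold lower, as were 0.134% of all genes, and 0 members were at least 2-fold higher, against 0.168% of all genes. Of the 8, 5 were higher and 3 lower, beside 5873 higher and 6045 lower of all 11920 genes. The median difference was 0.06, beside -0.002 over all genes, whose robust SD (scaled median absolute deviation) was 0.18. The genes therefore had no common direction. All differences are log2(intensity + 1) after silncMDSC minus the same after control siRNA, and each fold is read from that difference.

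**Figure D1:**
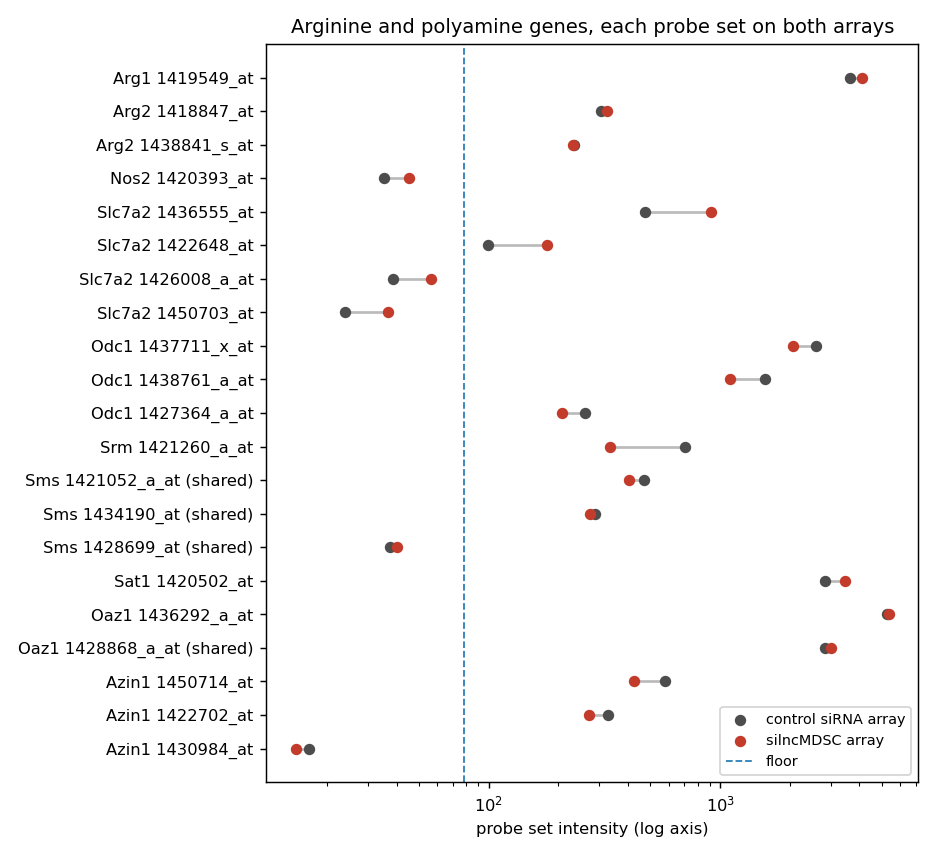
Intensity (x axis, log scale) of each of the 21 probe sets annotated to the 10 genes (y axis), in grey on the control siRNA array and in red on the silncMDSC array, with the floor of 78.44 dashed. The 4 Slc7a2 probe sets have the red point on the right and the Srm probe set and all 3 of Odc1 and of Azin1 have it on the left; positions of different probe sets are not comparable as amounts of RNA.

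The arginases were nearly level. Arg1, the cytosolic arginase that depletes arginine around suppressive myeloid cells, was read by 1 probe set, 1419549_at. Its intensity was 3659 with control siRNA and 4124 with silncMDSC, a difference of 0.17 (1.13-fold higher). As many as 15.3% of all genes lay at least that far above control. Arg2, the mitochondrial arginase, had 304 in control and 324 in silncMDSC on 1418847_at (0.09). Its other probe set, 1438841_s_at, had 233 and 232 (-0.01). Both differences were smaller than the robust SD over all genes.

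Nos2, the enzyme that makes nitric oxide from arginine in activated macrophages and monocytic suppressor cells, was dim in both cultures. Its only probe set, 1420393_at, had 35.3 in control and 45.4 in silncMDSC, both below the floor. The difference of 0.36 therefore concerns values within the dimmer part of the array, and no fold is given for it. The genes that supply and protect nitric oxide synthesis were above the floor in part. Gch1, the first enzyme of the tetrahydrobiopterin cofactor, had 434 in control and 343 in silncMDSC (-0.34, with -0.17 on its other probe set). The next cofactor enzymes, Pts (0.14) and Spr (-0.14), lay on opposite sides, and Ddah2, which clears methylated arginine inhibitors, differed by 0.05. The other synthases were close to the floor, with Nos3 at 0.21 and Nos1 at -0.01.

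Slc7a2, which encodes the cationic amino acid transporter CAT2 and so brings arginine into activated macrophages, was higher on every probe set. The brightest, 1436555_at, had 476 in control and 912 in silncMDSC, a difference of 0.94 (1.91-fold higher). Only 24 of the 11920 genes, itself included, or 0.201%, were as far above control. The other probe set above the floor, 1422648_at, had 99.0 and 179 (0.85). The dim probe sets 1426008_a_at (38.4 and 56.3) and 1450703_at (23.9 and 36.6) stayed under the floor with either siRNA and were also higher, by 0.54 and 0.59. Thus 4 of 4 probe sets lay on the same side. For scale, 31.8% of the 2939 genes with 2 probe sets above the floor had both of them higher.

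The other carriers of arginine differed by less. Slc7a1, the constitutive transporter CAT1, had 851 in control and 686 in silncMDSC (-0.31), and its second probe set above the floor gave -0.30. The exchangers Slc7a7 (177 and 227, 0.36) and Slc7a6 (220 and 195, -0.17) lay on opposite sides, although a further probe set of Slc7a7, below the floor, gave -0.08. Their common heavy chain Slc3a2 was level (-0.04). Of the 4 genes of this group above the floor, 1 was higher, 3 were lower and 0 were 1.5-fold apart. For comparison, 49.3% of all genes above the floor were higher and 97.6% stayed within 1.5-fold. With 4 genes, these counts do not set the group apart from all genes.

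Of the enzymes that make polyamines, Srm was over 2-fold lower on the silncMDSC array and Odc1 lower by less than 1.5-fold. Srm, spermidine synthase, had 707 in control and 335 in silncMDSC on its single probe set 1421260_a_at, a difference of -1.08 (2.11-fold lower). It ranked 11 from the bottom of the 11920 genes, so 0.0923% were as far below control. No second probe set was named for Srm, so this value has no check within the array.

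Odc1, the entry enzyme of polyamine synthesis, was lower on all 3 of its probe sets. The brightest, 1437711_x_at, had 2589 in control and 2055 in silncMDSC, a difference of -0.33 (1.26-fold lower), with 6.38% of all genes as far below. Probe set 1438761_a_at had 1560 and 1106 (-0.50) and 1427364_a_at had 260 and 207 (-0.33). The ending _x_at marks a probe set that can cross-hybridise. Of the probe sets without it, 1438761_a_at had a larger difference and 1427364_a_at about the same one. Of the 1213 genes with 3 probe sets above the floor, 30.3% had all 3 lower.

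Spermine synthase could not be read alone. Of the probe sets shared by Sms and Sms-ps, 1421052_a_at had 468 in control and 404 in silncMDSC (-0.21), 1434190_at had 288 and 274 (-0.07), and 1428699_at had 37.6 and 40.0, below the floor on both arrays. The sum of gene and pseudogene was thus slightly lower on the 2 brighter probe sets. These differences were far smaller than that of Srm, whose enzyme precedes spermine synthase in the pathway.

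Sat1, the acetyltransferase that starts polyamine breakdown, was on the other side. Probe set 1420502_at had 2831 in control and 3466 in silncMDSC, a difference of 0.29 (1.22-fold higher), and 5.54% of all genes were as far above. The other catabolic genes differed less. Smox, the spermine oxidase, had 304 and 295 (-0.04), and Sat2, named for its likeness to Sat1, had 311 and 336 (0.11).

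The promoters of Odc1 and Sat1 are shown because these genes of synthesis and breakdown stood on opposite sides and both have a RefSeq entry. RefSeq promoters (GRCm38.p6, 250 bases before to 50 after the start) were held for 4 of the 10 genes, Odc1, Sms, Sat1 and Oaz1, with 5 start sites in all. Odc1 lies at chr12:17544623-17544922 on the plus strand and is 78.0% G and C. Sat1 lies at chrX:155216400-155216699 on the minus strand and is 60.3% G and C, against a median of 52.7% over 32851 promoters. Capitals mark the GC box GGGCGG on either strand, found in 35.7% of all promoters.
Odc1: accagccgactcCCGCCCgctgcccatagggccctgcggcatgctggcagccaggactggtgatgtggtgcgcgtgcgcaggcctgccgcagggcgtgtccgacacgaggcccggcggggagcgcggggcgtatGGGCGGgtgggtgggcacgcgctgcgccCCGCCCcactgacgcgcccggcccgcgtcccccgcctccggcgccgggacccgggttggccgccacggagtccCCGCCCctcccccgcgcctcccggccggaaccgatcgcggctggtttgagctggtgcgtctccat
Sat1: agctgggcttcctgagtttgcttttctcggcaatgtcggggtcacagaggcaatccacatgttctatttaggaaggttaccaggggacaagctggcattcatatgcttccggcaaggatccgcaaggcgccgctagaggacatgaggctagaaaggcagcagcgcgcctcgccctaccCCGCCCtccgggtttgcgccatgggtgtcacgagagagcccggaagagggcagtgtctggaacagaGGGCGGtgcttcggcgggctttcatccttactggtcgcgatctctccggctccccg

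The window of Odc1 held 4 GC boxes and that of Sat1 held 2. The E-box CACGTG, which MYC and its partner MAX can bind, was in neither window and is in 7.15% of all promoters. It was found at 1 of the 5 start sites, that of Sms at chrX:157492238-157492537 (minus strand), where it begins 196 bases before the start. It is shown in capitals with 12 bases on each side, at chrX:157492466-157492495.
Sms: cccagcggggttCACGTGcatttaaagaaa

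Neither TTNNGCAA, a motif of C/EBP factors (10.8% of all promoters), nor the STAT motif TTCNNNGAA (8.3%), nor the STAT6 motif, the same with 4 free bases (6.95%), occurred on either strand at the 5 start sites. A match is a description of the letters, and its absence from these windows says nothing about the factor. As measured on the same arrays, Myc had 741 in control and 430 in silncMDSC (-0.78), Max 272 and 215 (-0.33) and Cebpb 3337 and 3001 (-0.15). Of the same network as Myc, Mxd1, which competes with MYC for MAX, had 1081 and 1260 (0.22, with -0.01 and 0.04 on its other probe sets) and Mycn 185 and 200 (0.11). Stat6 had 1019 and 1085 (0.09), and Il4ra, a chain of the IL-4 receptor, 447 and 495 (0.15, with 0.02 and -0.26 on its others). Whether these differences have a part in those of Srm and Odc1 was not tested.

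Of the regulators of ornithine decarboxylase, the inhibitor was level and its antagonist was lower. Oaz1, the antizyme, had 5260 in control and 5358 in silncMDSC on 1436292_a_at (0.03). Its other probe set, 1428868_a_at, is shared with the pseudogene Oaz1-ps and had 2847 and 3018 (0.08). The antizyme is made through a frameshift during translation that polyamines promote, so its message level does not show its protein level. Azin1, the antizyme inhibitor, had 577 in control and 424 in silncMDSC on 1450714_at, a difference of -0.44 (1.36-fold lower), and 3.25% of all genes were as far below. Its probe set 1422702_at had 329 and 270 (-0.28), and the dim 1430984_at 16.8 and 14.7 (-0.18, below the floor). All 3 lay below control. For scale, 38.5% of genes with 2 probe sets above the floor had both lower.

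The relatives of these regulators were uneven. Oaz2, a second antizyme, had 332 and 392 (0.24) on its brightest probe set, with 0.16 and -0.06 on the others. The brightest probe set of Azin2, a second antizyme inhibitor, had 111 in control and 170 in silncMDSC (0.61, 1.53-fold higher), but its next one had 117 and 109 (-0.10), so its probe sets disagreed. Oaz3, known from the testis, was close to the floor (83.8 and 75.1, -0.16).

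**Figure D2:**
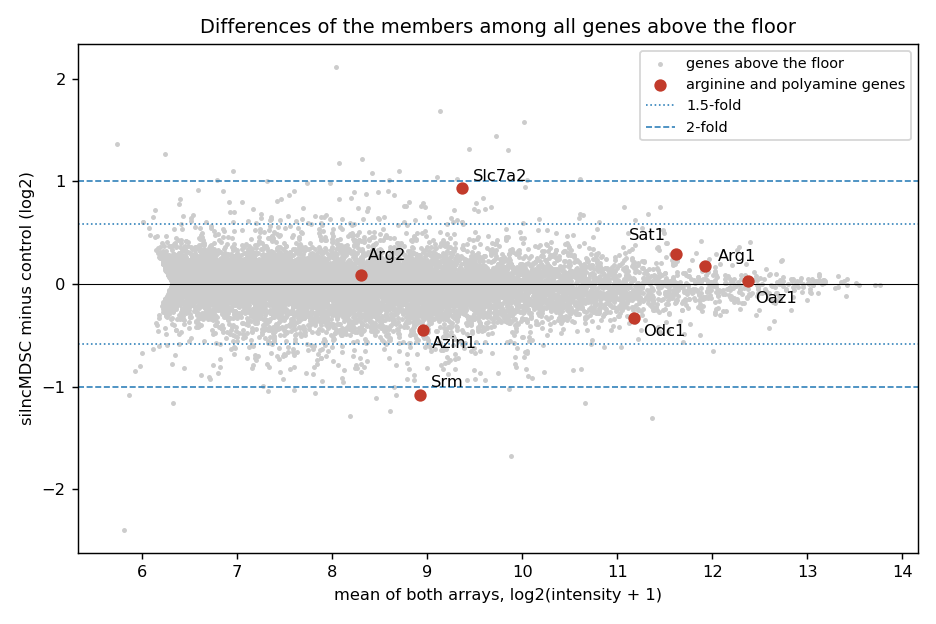
All 11920 genes above the floor are drawn as grey points by mean level (x axis, log2(intensity + 1)) and by silncMDSC minus control difference (y axis, log2), and dotted and dashed lines at 1.5-fold and 2-fold. The 8 members in red run from -1.08 for Srm to 0.94 for Slc7a2, with Arg1, Arg2 and Oaz1 near 0.

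In the wider pathway, 2 of the genes read were at least 1.5-fold apart, both higher. A list of 49 further genes of arginine and polyamine handling had 43 with a probe set of 1 symbol and 36 above the floor. Of the 36, 2 were at least 1.5-fold higher (Ckb and Azin2) and 0 at least 1.5-fold lower, beside the 0.948% and 1.42% of all genes given above. In all 15 were higher and 21 lower, with a median of -0.02, while 49.3% of all genes above the floor were higher. No probe set is named here for Amd1, Amd2 or Mat2a, so the supply of decarboxylated S-adenosylmethionine, the aminopropyl donor of Srm and Sms, was read only through Mat2b (0.14).

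Genes that use spermidine and recycle its by-product were within 1.5-fold on the probe sets that stand for them. Hypusine synthesis attaches part of spermidine to the translation factor eIF5A. Its 4 genes all lay below 0, as did 6045 of the 11920 genes, and 3 of them by less than the robust SD. Dhps, which transfers the spermidine part, had 287 in control and 241 in silncMDSC (-0.25, with -0.08 on its other probe set), Eif5a had 6606 and 5933 (-0.16), Dohh 286 and 274 (-0.07) and Eif5a2 89.2 and 85.8 (-0.05). Methylthioadenosine, released by both aminopropyl transfers, is salvaged to methionine in a pathway that starts with Mtap. Mtap was uncertain. The probe set with its highest mean, 1424425_a_at, had 558 and 547 (-0.03), while 1451346_at had 580 and 338 (-0.78), 1451345_at 112 and 65.4 (-0.77) and 1424426_at 85.2 and 53.7 (-0.66). Thus 3 of its 4 probe sets were over 1.5-fold lower and the one that stood for the gene was level. Enoph1, a later enzyme of the salvage, had 530 and 411 (-0.37) and -0.51 on its other probe set, whereas Mri1 (0.05), Apip (-0.07) and Adi1 (0.05) differed little. The other probe sets of Adi1 gave 0.21 and 0.17.

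Of the genes at the other exits of arginine and ornithine, 1, Ckb, was 1.5-fold apart. Oat, which turns ornithine towards glutamate and proline, had 1028 in control and 1025 in silncMDSC. Aldh18a1, which makes the same intermediate from glutamate, was at 0.16 and Pycrl, of proline synthesis, at -0.21. Gatm, which takes the amidino group of arginine for creatine, had 417 and 474 (0.18), Gamt 91.5 and 101 (0.14), and the creatine kinase Ckb 164 and 255 (0.64, 1.56-fold higher). Of the enzymes that rebuild arginine from citrulline, Asl was level (-0.02), and Ass1 gave -0.06 on its own probe set and 0.29 on a brighter one (556 and 679) that the annotation shares with another gene. The mitochondrial ornithine carrier Slc25a15 had 435 and 491 (0.18), and Otc, Cps1 and Nags, the liver enzymes of the urea cycle, were below the floor. The polyamine transporters Atp13a2 (-0.10) and Atp13a3 (-0.14) were lower by less than the robust SD over all genes. The other probe sets of Atp13a2 lay on opposite sides (-0.05 and 0.10).

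**Figure D3:**
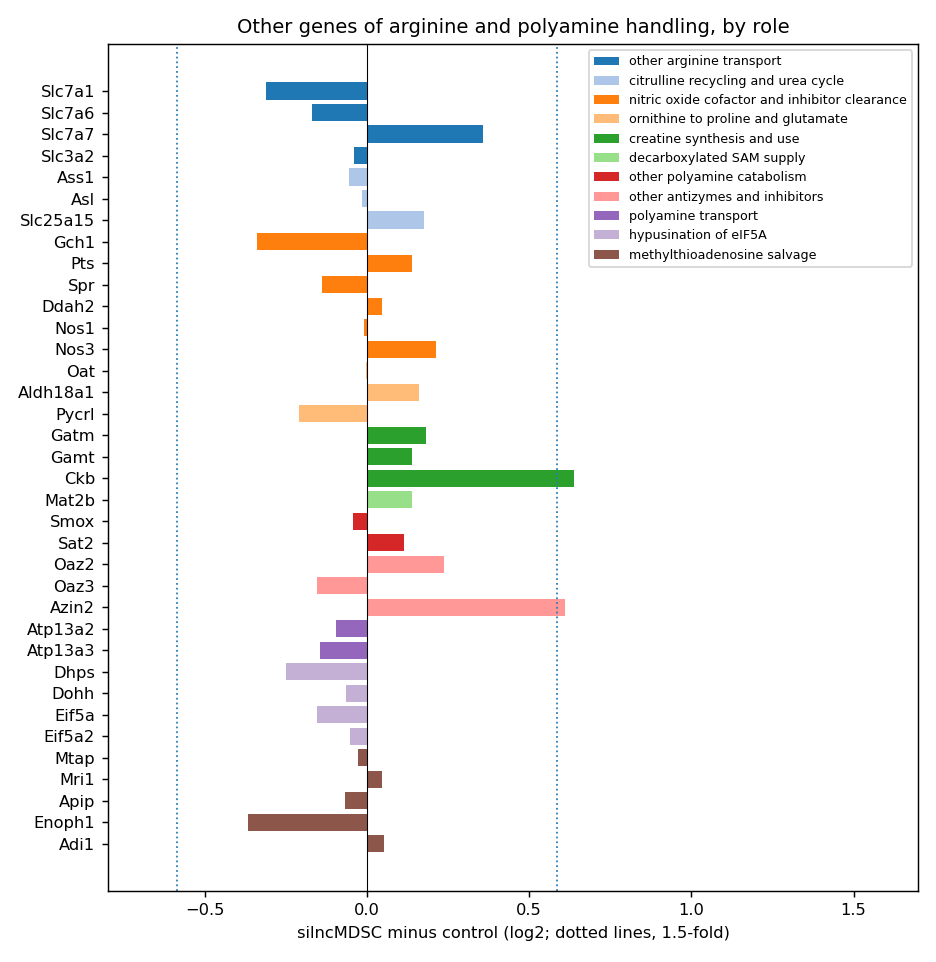
For each of the 36 genes of the wider list above the floor (y axis), a bar gives the difference between the single arrays, silncMDSC minus control (x axis, log2), coloured by role, with dotted lines at 1.5-fold. Ckb (0.64) and Azin2 (0.61) pass the line, and the 4 genes of hypusine synthesis lie between -0.25 and -0.05.

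Marker genes of the cells in such cultures were read beside these values. Of the 9 neutrophil markers and 7 monocyte markers listed, 8 and 5 had a probe set of their own and all were above the floor. None was 1.5-fold apart, and of all genes only 0.948% were that far higher and 1.42% that far lower. Of these markers, Cxcr2 was at 0.44, Ccr2 at 0.34, S100a8 at -0.01 and Ms4a6c at -0.50 (-0.13 on its other probe set). Ly6g, which defines neutrophil-like MDSCs, had no probe set named here. The monocyte markers Ly6c1 and Ly6c2 share the probe set 1421571_a_at, which was level (8777 in control and 8671 in silncMDSC, -0.02) and enters no sum. The summed intensity of the neutrophil markers was 58678 in control and 57444 in silncMDSC, and that of the monocyte markers 10684 and 10759. The neutrophil sum rests largely on S100a8, S100a9 and Ngp, some of the brightest probe sets of the arrays, and the monocyte sum joins markers on opposite sides. Of 9 macrophage markers, 4 (Mrc1, Msr1, Apoe and Maf) were at least 1.5-fold lower and 0 higher, against 1.42% and 0.948% of all genes, while Adgre1 (-0.001) and C1qa (-0.03) were level, and the sums were 14523 and 11648. Among 7 dendritic cell markers, 4 were at least 1.5-fold higher and 0 lower by as much, against 0.948% and 1.42% of all genes. These were Itgax, H2-Eb1, Ciita and Ccr7, while H2-Aa (0.41), Flt3 (0.34) and Zbtb46 (0.14) were higher by less. The sums over all 7 were 7827 and 11352, and rest largely on H2-Aa (4661 and 6210) and H2-Eb1 (2150 and 3628). Ciita passed 1.5-fold on its brightest probe set only (0.70, with 0.09 and 0.38 on its others). The 3 of 5 eosinophil markers above the floor were higher, as were 49.3% of all genes. The sums over all 5 were 2745 and 3913 and rest largely on Prg2 (2022 and 2954). The eosinophil receptors Il5ra and Ccr3 were below the floor on both. Sums were 7180 and 7814 for mast cell and basophil markers. Of these 5 genes 4 were higher, Cpa3 by 0.48, and Fcer1a was lower (-0.44). T and NK cell markers had sums of 1311 and 1568 (Klrd1 at 0.91), and B cell markers 674 and 648. The stromal sum was 277 and 285, with 1 of its 5 genes above the floor. The erythroid sum was 246 and 257 over 4 genes, 3 of them below the floor. It leaves out the haemoglobin probe sets that several genes share, of which 1428361_x_at had 141 and 232 (0.72), 1452757_s_at 145 and 190 (0.39) and 1417184_s_at 294 and 342 (0.22). The part of these cells in the differences of Slc7a2, Sat1, Odc1, Azin1 and Srm was not tested.

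**Figure D4:**
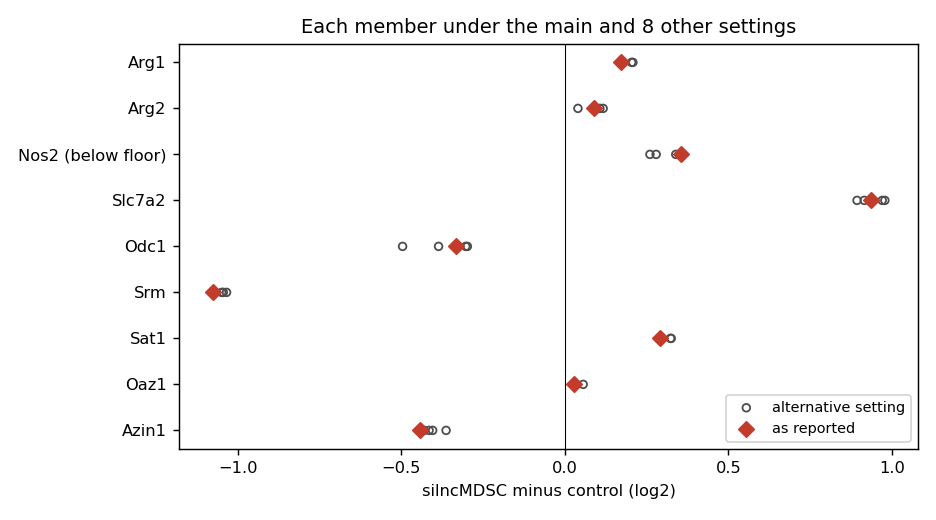
Differences (x axis, log2) of the 9 genes read, as reported (red diamonds) and under 8 other ways of processing the same arrays (open circles). Slc7a2 stays between 0.89 and 0.98 and Srm between -1.08 and -1.03, and each gene keeps its side of 0.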

How the data were processed

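Total RNA (6 µg per culture) was labelled with biotin and hybridised to Affymetrix Mouse Genome 430 2.0 arrays, 1 per siRNA. The authors deposited linear probe set intensities. The submitters' notes name RMA without a version. RMA usually gives log2 values, so the values were returned to the linear scale at a step that the sources used here do not give. Median intensities were 77.95 (control) and 79.02 (silncMDSC), and 97.6% of genes above the floor were less than 1.5-fold apart. The number of arrays limits the precision.

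Of 45101 probe sets, 64 Affymetrix controls were left out. Of the rest, 34945 had 1 gene symbol, 932 several and 9160 none. The symbols of all 10 genes matched RefSeq (GRCm38.p6) through Entrez identifiers. Array positions carry no build, so gene coordinates are not given and only promoters have them. The study's methods name limma, an adjusted p and a 2-fold threshold. No such fit can be made from a single array per group, so differences of log2(intensity + 1) were computed (Python 3.11.15, pandas 2.3.3). The calculation was tested on simulated data.

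The 10 genes and all lists were chosen with earlier results of these data known. All 10 are named with every probe set. From the other lists, genes at least 1.5-fold apart and up to 3 per role were to be named, and further ones were named after their values were seen. The GC box was added to the motifs after the sequences were seen, and TATAAA, searched with it, was in 1 of the 5 member windows and 13.6% of all promoters. A protein comparison was planned and not run, since no protein sequences were used here. Alternatives were a pseudocount of 16, median centring, removal of a loess trend (span 0.3), repeated quantile normalization, the mean of a gene's probe sets, no _x_at or _s_at probe sets, no floor, and a floor at the 75th percentile (214.92).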

Additional observations from a re-analysis of the deposited data

How the results depend on the processing

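The differences of the 9 genes read kept their sign under each of the 8 alternatives, and of 169 alternative values 166 stayed close to the reported one (within the robust SD of all genes, 0.18, or for a count within 1.5 times). Part of this was fixed in advance, since 31 of the 72 alternative values of single genes could not move, 18 of them because only the floor differed and the others because the gene kept its probe set. The larger pseudocount could not change a sign either. Median centring shifted every gene only by the all-gene median of -0.002, which is smaller in size than each of these differences. Among the counts and medians, values that could not move were not counted, so the 166 overstates the stability. The rule for counts also took as close a fall from 36 to 25 wider pathway genes above the floor (75th percentile). With no replicates, that SD stands in for replicate error and mixes probe noise with real differences. Slc7a2 ran from 0.89 to 0.98, Srm from -1.08 to -1.03, Odc1 from -0.50 without cross-hybridising probe sets to -0.30, Azin1 from -0.44 to -0.36 and Sat1 from 0.29 to 0.33. The number of wider pathway genes at least 1.5-fold higher fell from 2 to 1 with a pseudocount of 16, with the mean of a gene's probe sets and with the floor at the 75th percentile. The median of the 8 members ran from 0.03 to 0.08, and it was 0.09 both without Srm and with no floor, which adds Nos2. No paired analysis was possible because each group has 1 array.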
